A study of Saccharomyces cerevisiae with 12 samples.

Results

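The 33 genes described here encode 32 subunits of the yeast proteasome and the transcription factor Rpn4p. They were chosen by name, with earlier results of these data known but with no measured value in the rule, and each has 1 element among the 6024 elements of the array. Of the subunits, 14 form the core particle, with 7 in the alpha ring and 7 in the beta ring, and 18 form the regulatory particle, with 10 in the base and 8 in the lid. A further small subunit of the lid, encoded by *SEM1*, was not analysed here. The mRNA of *Saccharomyces cerevisiae* was measured in 4 strains after 30 min in 2 mM DTT, a reducing agent that disturbs the folding of proteins in the endoplasmic reticulum (ER). The strains were WT, a *MAT* a strain with mutant alleles of *URA3*, *LEU2*, *HIS3*, *TRP1*, *ADE2*, and *CAN1*, and the deletion strains Δ*ire1*::*TRP1*, Δ*gcn4*::*his5+*, and Δ*gcn2*::*his5+*, which were otherwise of the same genotype. Ire1p is the ER stress sensor that starts the unfolded protein response, Gcn4p is a transcription factor of amino acid synthesis, and Gcn2p is the kinase that promotes its translation. Each strain was measured on 3 spotted arrays, on which treated and untreated cells of the same strain, grown in rich medium, were hybridized together.

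The proteasome degrades proteins that carry ubiquitin. The regulatory particle binds and unfolds them, and its ring of 6 ATPases threads them into the core particle, where 3 kinds of beta subunit cut them. Rpn4p activates the genes of most subunits by binding a short promoter element, and it is itself degraded by the proteasome within minutes, so that subunit synthesis follows the demand for degradation. ER proteins that fail to fold are returned to the cytosol and are also degraded by the proteasome.

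All values are log2 ratios of DTT-treated over untreated cells, as deposited, with means ± SD over 3 arrays. Genes are called higher or lower where the adjusted p of limma, taken over all elements, was under 0.05. The median log2 ratio over all elements lay between −0.205 and −0.056 on the 12 arrays, and the median of the strain means was −0.11 in Δ*gcn2*, −0.14 in Δ*ire1*, −0.15 in WT, and −0.16 in Δ*gcn4*. Because 0 is therefore not the middle of the arrays, counts against no change are given as deposited and again with the median of each array set to 0. In cultures measured in bulk, a response in fewer cells and a smaller response in each cell cannot be told apart. The response to DTT was visible in *KAR2*, the ER chaperone, at 1.96 ± 0.21 in WT and 0.85 ± 0.24 in Δ*ire1*. *ERO1*, the ER oxidase, had 1.96 ± 0.094 and 0.37 ± 0.14. The ratio compares 2 samples of the same strain, and therefore does not check the deletions themselves.

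*RPN4* had its highest ratios in the strain that lacks the ER stress sensor. Its log2 ratio was 1.361, 1.166, and 0.882 on the 3 arrays of Δ*ire1*, a mean of 1.14 ± 0.24 or 2.20-fold (adjusted p = 1.4e-06). In WT the values were 0.390, 0.256, and 0.301, with a mean of 0.32 ± 0.068 or 1.25-fold (adjusted p = 0.0187). In Δ*gcn2* they were 0.536, 0.290, and 0.399, with a mean of 0.41 ± 0.12 (adjusted p = 0.0033). The 3 arrays of Δ*ire1* lay above every other array, and the arrays of WT and Δ*gcn2* overlapped. In Δ*gcn4* the values were 0.037, 0.131, and −0.250, so that all 3 lay below the lowest value of WT, and the mean of −0.03 ± 0.20 did not pass the test (adjusted p = 0.84). This mean became 0.13 after the arrays were centered. In the order of all elements, *RPN4* stood at rank 43 from the top in Δ*ire1* and at ranks 1011, 1156, and 2271 in WT, Δ*gcn2*, and Δ*gcn4*.

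**Figure D1:**
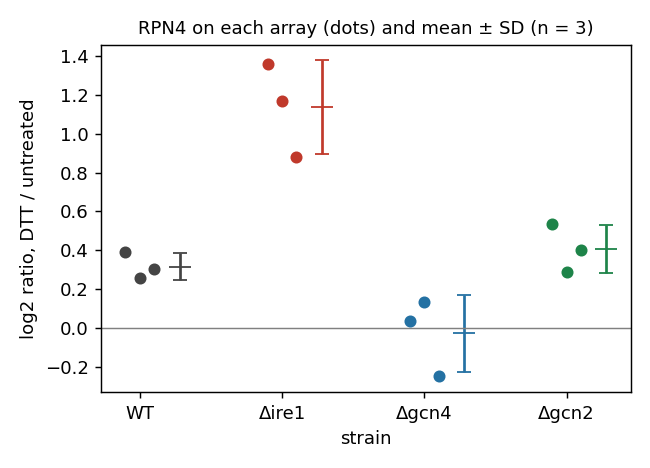
Log2 ratio (DTT-treated over untreated) for RPN4 on each array (points), with the mean and SD of the 3 arrays of each strain. The 3 Δire1 arrays, from 0.882 to 1.361, lie above the other 9 arrays, which range from −0.250 to 0.536.

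The difference between strains in the response of *RPN4* was tested in the same model. The response was higher in Δ*ire1* than in WT by 0.82 (SE 0.15, adjusted p = 0.0015), than in Δ*gcn2* by 0.73 (SE 0.15, adjusted p = 0.0018), and than in Δ*gcn4* by 1.16 (SE 0.15, adjusted p = 1.1e-04). These 3 calls were kept when any 1 of the 12 arrays was left out, with a highest adjusted p of 0.0118. The response in Δ*gcn4* minus that in WT was −0.34 (adjusted p = 0.276), and minus that in Δ*gcn2* it was −0.44 (adjusted p = 0.092). The latter passed the test only when the arrays were weighted by their quality, at −0.51 (adjusted p = 0.0174). Between Δ*gcn2* and WT the difference was 0.09, with a 95% interval from −0.23 to 0.41 (adjusted p = 0.71). A limma fit of the arrays of these strains alone, with the replicate number as a block, also gave 0.09 (adjusted p = 0.48). The call of *RPN4* as higher in WT was lost without WT array 1 (0.28, adjusted p = 0.098) or WT array 3 (0.32, adjusted p = 0.059).

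Of the 33 genes, 14 were higher and 3 lower in WT. Among all elements, 18.4% were higher and 39% lower in this strain. After centering, 20 of the genes were higher and 0 lower, with 0 lower also at an unadjusted p under 0.05 in limma, against 27.6% and 28.4% of all elements. The 14 higher genes were *RPN4*, the 6 ATPases *RPT1* to *RPT6*, *RPN2*, 4 lid genes, and 2 genes of the alpha ring. The count of higher genes fell to 6 without WT array 1 and to 6 without WT array 3, and the count of lower genes fell to 1 without WT array 3.

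In Δ*ire1*, 18 of the 33 genes were higher and 1 was lower, where 12.2% and 35.6% of all elements were. After centering, 25 were higher and 0 lower, with 0 lower also at an unadjusted p under 0.05 in limma, against 21.9% and 23.2% of all elements. The median of the 32 subunits was 0.27, compared with 0.16 in WT, 0.06 in Δ*gcn2*, and 0.08 in Δ*gcn4*, while the median of all elements was below 0 in each strain. After centering these medians were 0.42, 0.30, 0.16, and 0.24. The count of higher genes fell to 12 without Δ*ire1* array 1. The single lower gene, *PUP1*, lost its call without Δ*ire1* array 1 or 2, and a total of 2 genes were lower without Δ*ire1* array 3.

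Fewer proteasome genes passed the test in the strains without the *GCN4* pathway. In Δ*gcn4*, 4 genes were higher and 4 lower, against 15.8% and 38.7% of all elements, and after centering 16 were higher and 1 lower, against 25.6% and 26.4%. In Δ*gcn2*, 7 genes were higher and 0 lower, against 25.2% and 37.8%, with 2 lower at an unadjusted p under 0.05 in limma. After centering, 12 were higher and 0 lower, the latter also at an unadjusted p under 0.05, against 31.7% and 30.8%. As deposited, the 4 of 33 genes higher in Δ*gcn4* and the 7 of 33 in Δ*gcn2*, 12.1% and 21.2%, were shares below those of all elements. After centering, the 16 of 33 and the 12 of 33 were shares above those of all elements, so that this comparison depended on the scaling. Without Δ*gcn4* array 3 the counts as deposited in that strain fell to 1 higher and 2 lower. Without Δ*gcn4* array 1 only 2 were lower, and without Δ*gcn2* array 3 only 3 were higher in Δ*gcn2*. One gene was lower in Δ*gcn2* without Δ*gcn4* array 1 or 2.

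**Figure D2:**
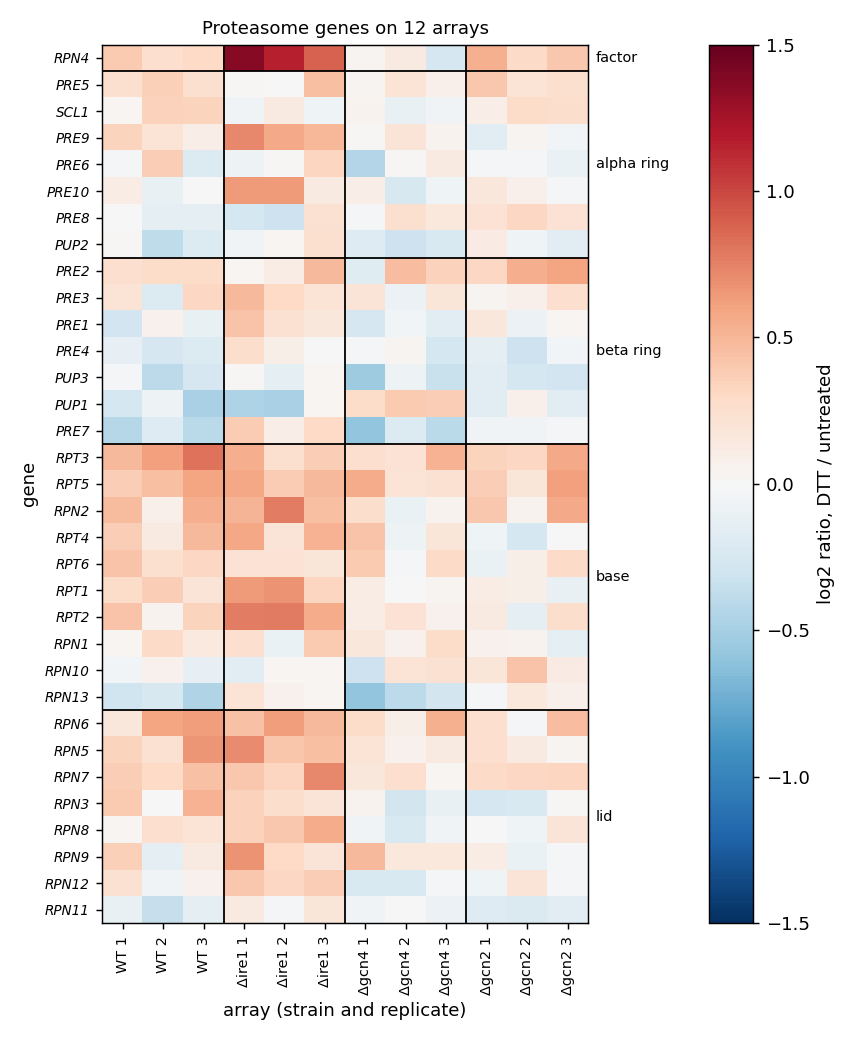
Log2 ratio (DTT-treated over untreated, color) for the 33 genes (rows, grouped by their place in the particle) on the 12 arrays (columns, grouped by strain). RPN4 in Δire1 reaches 1.361, the ATPase rows are mostly red in WT and Δire1, and PRE7 and RPN13 are blue on all arrays of WT and Δgcn4.

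The regulatory particle carried most of the higher genes. In WT, 11 of its 18 genes were higher and 1 lower, compared with 2 higher and 2 lower of the 14 genes of the core particle. In Δ*ire1* the counts were 12 higher and 0 lower, with 0 lower also at an unadjusted p under 0.05, compared with 5 higher and 1 lower in the core. The regulatory genes that were higher made up 61.1% in WT and 66.7% in Δ*ire1*, above the 18.4% and 12.2% of all elements. In Δ*gcn4* they were 3 and 1 compared with 1 and 3, and in Δ*gcn2* 4 and 0 compared with 2 and 0. There the higher regulatory genes, 16.7% and 22.2% as deposited, were close to the 15.8% and 25.2% of all elements. After centering, the higher regulatory and core genes numbered 16 and 8 for Δ*ire1*, 14 and 5 for WT, 7 and 4 for Δ*gcn2*, and 10 and 6 for Δ*gcn4*, to be read against the centered shares of all elements given above. The 10 of 18 regulatory genes in Δ*gcn4* were then above the 25.6% of all elements, and the 7 of 18 in Δ*gcn2* above the 31.7%. The lower genes after centering were 1 regulatory gene, in Δ*gcn4*, and 0 core genes in every strain, where 1 core gene of Δ*gcn4* was lower at an unadjusted p under 0.05 in limma. The medians of the regulatory genes were 0.41 in Δ*ire1*, 0.29 in WT, 0.08 in Δ*gcn2*, and 0.13 in Δ*gcn4*, and those of the core genes were 0.14, −0.045, 0.0020, and −0.053 in the same order. After centering, the core medians were 0.28, 0.10, 0.11, and 0.11.

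The mean of the regulatory genes minus the mean of the core genes was taken on each array, where any shift of a whole array cancels. It was 0.235, 0.169, and 0.347 in WT and 0.270, 0.232, and 0.142 in Δ*ire1*. In Δ*gcn4* it was 0.233, −0.025, and 0.138, and in Δ*gcn2* 0.039, −0.004, and 0.118. The 6 arrays of WT and Δ*ire1* therefore all had the regulatory particle above the core, the 3 arrays of Δ*gcn2* lay below them, and the arrays of Δ*gcn4* spanned both. The mean of all 32 subunits was between 0.223 and 0.302 on the arrays of Δ*ire1*, between 0.086 and 0.145 in WT, between 0.055 and 0.120 in Δ*gcn2*, and between 0.020 and 0.062 in Δ*gcn4*. The range of Δ*gcn2* overlapped with those of WT and Δ*gcn4*, and no other ranges overlapped. These means are as deposited and keep the shift of each array. The medians of the subunits as deposited were 0.225 to 0.3665 in Δ*ire1* and 0.074 to 0.19 in WT. They were 0.04 to 0.103 in Δ*gcn2* and 0.011 to 0.058 in Δ*gcn4*, with the same overlaps as the means. After centering, the median of the subunits was 0.370 to 0.4975 in Δ*ire1* and 0.2455 to 0.3455 in WT. It was 0.096 to 0.214 in Δ*gcn2* and 0.199 to 0.205 in Δ*gcn4*, so that Δ*gcn2* then overlapped with Δ*gcn4* only.

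**Figure D3:**
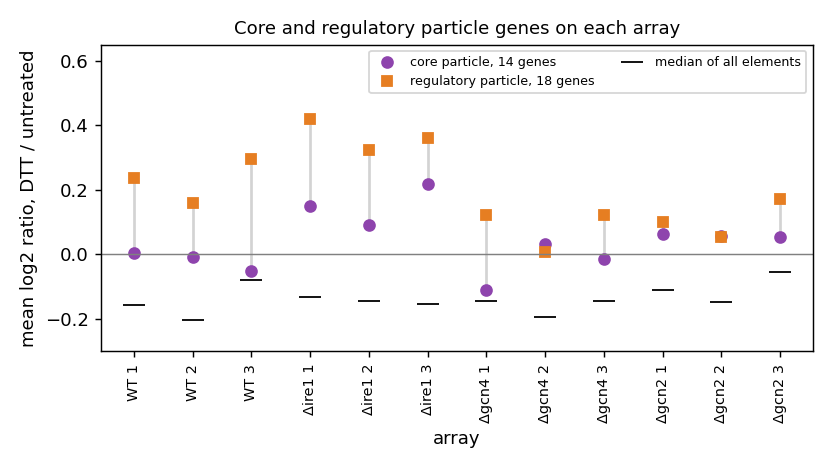
Mean log2 ratio (DTT-treated over untreated) over the 14 core particle genes (circles) and the 18 regulatory particle genes (squares) on each array, with the median of all 6024 elements (dashes). The 2 means are 0.142 to 0.347 apart in WT and Δire1, and 0.118 apart or less in Δgcn2.

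The alpha ring forms the gated entrance of the core particle. *PRE5* had the highest mean in WT, with 0.237, 0.362, and 0.243, and in Δ*gcn2* its values were 0.409, 0.210, and 0.239. It was higher in both strains (0.28, adjusted p = 0.0254, and 0.29, adjusted p = 0.0208). Its values in Δ*ire1* were 0.019, 0.006, and 0.453, and in Δ*gcn4* 0.044, 0.205, and 0.076, all 3 below the lowest of WT. The call in WT was lost without any 1 of its 3 arrays (adjusted p between 0.0605 and 0.127), and that in Δ*gcn2* without array 1 or 3 of the strain (0.146 and 0.0546).

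*PUP2* had the lowest mean of the alpha ring in WT, with 0.014, −0.376, and −0.200. Its values in Δ*ire1* were −0.047, 0.030, and 0.243, those in Δ*gcn2* were 0.121, −0.064, and −0.162, and those in Δ*gcn4* were −0.188, −0.312, and −0.234. It was lower only in Δ*gcn4* (−0.24 ± 0.063, adjusted p = 0.0481), and not after centering (−0.08, adjusted p = 0.51). The call was also lost without any 1 of 8 arrays.

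The strongest response in the alpha ring was that of *PRE9* in Δ*ire1*. This gene encodes the only subunit of the core that yeast can live without. Its values in Δ*ire1* were 0.718, 0.574, and 0.495 (0.60 ± 0.11, 1.51-fold, adjusted p = 7.6e-05), all above the highest value of any other strain, 0.335. *PRE10* was also higher in Δ*ire1*, with 0.642, 0.642, and 0.132 (0.47 ± 0.29, adjusted p = 0.0024), and its mean in the other strains lay between −0.07 and 0.07. *SCL1* was higher in WT (0.24 ± 0.18, adjusted p = 0.0423), a call that was lost without any 1 of 6 arrays. *PRE6* and *PRE8* passed the test in no strain, with means between −0.10 and 0.09 and between −0.12 and 0.25. After centering, *PRE9* was also higher in WT and Δ*gcn4*, *PRE5* in Δ*ire1* and Δ*gcn4*, *PRE8* in Δ*gcn4* and Δ*gcn2*, and *SCL1* in Δ*gcn2*, with values of 0.25 to 0.36, while *PRE6* still passed in none.

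The beta ring holds the proteolytic sites, which lie in the subunits encoded by *PRE3*, *PUP1*, and *PRE2*. Their calls differed between the strains and with the scaling. *PRE2*, which encodes the chymotrypsin-like subunit, had 0.316, 0.549, and 0.589 in Δ*gcn2* (0.48 ± 0.15, 1.40-fold, adjusted p = 0.0026), the highest mean of any subunit in that strain. Its values were −0.186, 0.466, and 0.340 in Δ*gcn4*, 0.027, 0.114, and 0.481 in Δ*ire1*, and 0.257, 0.272, and 0.278 in WT, where none of the means passed the test. *PRE3*, of the caspase-like subunit, was higher as deposited only in Δ*ire1* (0.33 ± 0.14, adjusted p = 0.0208), and the call was lost without either of 2 of its arrays. After centering, *PRE2* and *PRE3* were both higher in WT (0.42 and 0.25), Δ*ire1* (0.35 and 0.47), and Δ*gcn4* (0.37 and 0.26).

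*PUP1*, of the trypsin-like subunit, differed most between Δ*gcn4* and WT. It had 0.281, 0.387, and 0.366 in Δ*gcn4*, and −0.267, −0.082, and −0.482 in WT. The values were −0.466, −0.485, and 0.033 in Δ*ire1* and −0.157, 0.071, and −0.153 in Δ*gcn2*. The 3 arrays of Δ*gcn4* lay above all 9 others. It was higher in Δ*gcn4* (0.34 ± 0.056, adjusted p = 0.0163), and lower in WT (−0.28 ± 0.20, adjusted p = 0.0447) and Δ*ire1* (−0.31 ± 0.29, adjusted p = 0.0338). After centering, only the call in Δ*gcn4* was kept, and the values in WT and Δ*ire1* were −0.13 and −0.16. Leaving out 1 array ended the call in WT for 7 of the 12 arrays, in Δ*ire1* for 2, and in Δ*gcn4* for 2.

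*PRE7*, a structural subunit of the beta ring, had the lowest mean of all subunits in WT, with −0.431, −0.194, and −0.405 (−0.34 ± 0.13, adjusted p = 0.0070). In Δ*gcn4* the values were −0.586, −0.203, and −0.402 (−0.40 ± 0.19, adjusted p = 0.0028). In Δ*ire1* they were 0.386, 0.099, and 0.301 (0.26 ± 0.15, adjusted p = 0.0363), and in Δ*gcn2* −0.051, −0.057, and −0.022. The arrays of Δ*ire1* lay above those of every other strain, and those of Δ*gcn2* above those of WT and Δ*gcn4*. Centering took the values in WT and Δ*gcn4* to −0.20 (adjusted p = 0.12) and −0.24 (adjusted p = 0.065), so that neither was called. The call in WT was also lost without WT array 1 (adjusted p = 0.054), and that in Δ*ire1* without array 1 or 3 of the strain (0.21 and 0.11).

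Of the other beta genes, *PRE1* was higher in Δ*ire1* (0.28 ± 0.13, adjusted p = 0.0288), until either of 2 arrays was left out. *PUP3* was lower in Δ*gcn4* (−0.32 ± 0.23, adjusted p = 0.0163), but not after centering (−0.16, adjusted p = 0.23) or without either of 2 arrays. *PRE4* passed the test in no strain as deposited, with means from −0.19 in WT to 0.12 in Δ*ire1*. It was higher in Δ*ire1* after centering (0.26, adjusted p = 0.0313).

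In the base, the 6 genes of the ATPase ring were grouped after their values had been seen. All 6 were higher in WT, 5 in Δ*ire1*, and 2 in each of Δ*gcn2* and Δ*gcn4*, and their medians were 0.33, 0.46, 0.09, and 0.20. After centering, these counts were 6 in WT, 6 in Δ*ire1*, 2 in Δ*gcn2*, and 5 in Δ*gcn4*, so that the count in Δ*gcn4* depended on the scaling. Of all elements, 18.4%, 12.2%, 25.2%, and 15.8% were higher as deposited in the same order, and 27.6%, 21.9%, 31.7%, and 25.6% after centering. *RPT3* had the highest mean of all subunits in WT, with 0.492, 0.617, and 0.816 (0.64 ± 0.16, 1.56-fold, adjusted p = 7.1e-05). Its values in Δ*ire1* were 0.540, 0.242, and 0.374, those in Δ*gcn2* were 0.329, 0.313, and 0.567, and those in Δ*gcn4* were 0.247, 0.212, and 0.526. It was higher in all 4 strains, as was *RPT5*, whose mean was 0.47 in WT and 0.48, 0.39, and 0.33 in the deletion strains in the same order. As deposited, no other subunit was higher in all 4. After centering, *PRE2*, *PRE5*, *RPN5*, *RPN6*, and *RPN7* were also higher in all 4 strains. The call of *RPT3* was lost in Δ*ire1* without its array 1 (adjusted p = 0.065) and in Δ*gcn4* without its array 3 (0.15), and that of *RPT5* was lost without 1 array in each of Δ*gcn4* (0.14) and Δ*gcn2* (0.072).

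*RPT2*, whose product takes part in opening the gate of the core, had the highest mean of all subunits in Δ*ire1*, with 0.771, 0.776, and 0.553 (0.70 ± 0.13, 1.63-fold, adjusted p = 5.6e-05). Its values were 0.422, 0.054, and 0.335 in WT, 0.135, −0.132, and 0.261 in Δ*gcn2*, and 0.109, 0.213, and 0.059 in Δ*gcn4*. The arrays of Δ*ire1* lay above all 9 others. *RPT1* was also highest in Δ*ire1*, with means of 0.54 in Δ*ire1*, 0.28 in WT, 0.03 in Δ*gcn2*, and 0.05 in Δ*gcn4*. In this order of strains, *RPT4* had means of 0.43, 0.33, −0.11, and 0.18, and *RPT6* had 0.20, 0.33, 0.09, and 0.22. *RPT6* was the 1 ATPase gene that did not pass the test in Δ*ire1* as deposited (adjusted p = 0.11), and it passed after centering (0.35). Centering also brought *RPT2*, *RPT4*, and *RPT6* past the test in Δ*gcn4* (0.29, 0.34, and 0.38). The calls of *RPT1*, *RPT2*, *RPT4*, and *RPT6* in WT were each lost without 1 or 2 of its arrays (highest adjusted p between 0.084 and 0.21), and that of *RPT4* in Δ*ire1* without array 1 of that strain (0.057).

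The base also holds the ubiquitin receptors of the particle. Of these, *RPN13* had −0.294, −0.245, and −0.452 in WT (−0.33 ± 0.11, adjusted p = 0.0065). In Δ*gcn4* it had −0.597, −0.391, and −0.272 (−0.42 ± 0.16, adjusted p = 0.0013). Its values in Δ*ire1* were 0.201, 0.059, and 0.029, and in Δ*gcn2* −0.012, 0.162, and 0.076. The groups did not overlap, with all 6 arrays of WT and Δ*gcn4* below the 6 of the other strains. After centering, the call in Δ*gcn4* was kept (−0.26, adjusted p = 0.036), and that in WT was not (−0.18, adjusted p = 0.12), nor was it without WT array 3 (−0.27, adjusted p = 0.063). *RPN10* and *RPN1*, which encode the other receptors, passed the test in no strain as deposited, with means between −0.04 and 0.25 and between −0.01 and 0.18. After centering, *RPN1* was higher in WT (0.30), Δ*ire1* (0.32), and Δ*gcn4* (0.34), and *RPN10* in Δ*gcn2* (0.35). *RPN2*, of the large scaffold subunit, was higher in WT (0.37 ± 0.25), Δ*ire1* (0.57 ± 0.17), and Δ*gcn2* (0.34 ± 0.26), and its mean in Δ*gcn4* was 0.07 ± 0.18. Its calls in WT and Δ*gcn2* were each lost without 2 of their arrays (highest adjusted p of 0.13 and 0.21).

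The lid removes ubiquitin from the substrate through the deubiquitinase Rpn11p. *RPN11* itself had the lowest mean of the lid in WT, with −0.114, −0.342, and −0.152. Its values in Δ*ire1* were 0.129, −0.035, and 0.182, those in Δ*gcn2* were −0.190, −0.221, and −0.155, and those in Δ*gcn4* were −0.056, 0.010, and −0.083. It passed the test in no strain as deposited. *RPN6*, whose product clamps the lid to the core, had the highest mean of the lid in WT, with 0.172, 0.587, and 0.625 (0.46 ± 0.25, adjusted p = 0.0036). Its values were 0.442, 0.625, and 0.490 in Δ*ire1* (0.52 ± 0.095, adjusted p = 0.0020), 0.273, 0.093, and 0.533 in Δ*gcn4* (0.30 ± 0.22, adjusted p = 0.0425), and 0.255, −0.021, and 0.466 in Δ*gcn2*. The arrays of the 4 strains overlapped, and the call in Δ*gcn4* was lost without any 1 of 3 arrays (highest adjusted p = 0.32).

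*RPN3*, a scaffold subunit of the lid, had 0.396, −0.003, and 0.519 in WT, where it was higher (0.30 ± 0.27, adjusted p = 0.026) until WT array 1 or 3 was left out (0.13 and 0.22). In Δ*ire1* it had 0.346, 0.268, and 0.190, in Δ*gcn2* −0.256, −0.231, and 0.022, and in Δ*gcn4* 0.049, −0.280, and −0.111. The arrays of Δ*ire1* lay above all 6 of Δ*gcn2* and Δ*gcn4*. *RPN5* and *RPN7* were higher in WT (0.41 ± 0.23 and 0.37 ± 0.071) and Δ*ire1* (0.53 ± 0.16 and 0.48 ± 0.21), and *RPN7* also in Δ*gcn2* (0.31 ± 0.022). The calls of *RPN5* in WT and *RPN7* in Δ*gcn2* were lost without array 3 of the strain (adjusted p = 0.053 and 0.052). *RPN8*, of the partner of Rpn11p, *RPN9*, and *RPN12* were higher as deposited in Δ*ire1* alone, with means of 0.44 ± 0.11, 0.39 ± 0.25, and 0.36 ± 0.049, and the call of *RPN9* was lost without array 1 of the strain (adjusted p = 0.16). In WT these 3 genes had 0.16, 0.11, and 0.08, and whether they differed between the strains is given by the tests that follow. After centering, all 8 lid genes were higher in Δ*ire1*, *RPN11* at 0.24. Centering also brought past the test *RPN8* and *RPN12* in WT (0.31 and 0.23), *RPN5*, *RPN7*, and *RPN9* in Δ*gcn4* (0.30, 0.31, and 0.43), and *RPN5* and *RPN6* in Δ*gcn2* (0.25 and 0.34).

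Each deletion strain was next compared with WT, to ask whether the response of these genes depended on the deleted gene. The 3 comparisons share the WT arrays. Between Δ*ire1* and WT, 6 of the 33 genes had a higher response in Δ*ire1* and 0 a lower one, where 10.9% and 11.3% of all elements did. At an unadjusted p under 0.05 in limma the counts were 10 and 0, against 1124 and 1043 of the 6024 elements. Besides *RPN4*, the 6 were *PRE7* (0.61, SE 0.14, adjusted p = 0.0059), *PRE10* (0.47, SE 0.16, adjusted p = 0.042), *RPT2* (0.43, SE 0.14, adjusted p = 0.045), *RPN13* (0.43, SE 0.13, adjusted p = 0.029), and *PRE9* (0.38, SE 0.13, adjusted p = 0.044). Of the 33 differences, 24 were above 0, with a median of 0.18, and 3198 of the 6024 elements had a difference above 0.

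Only the calls of *RPN4* and *PRE7* in this comparison held when any 1 array was left out. Without WT array 3, or without Δ*ire1* array 1 or 2, the count was 2, and without Δ*gcn4* array 3 or Δ*gcn2* array 1, which enter only through the shared variance, it was 3. The call of *PRE9* was lost without any 1 of 9 arrays and after centering (adjusted p = 0.053), that of *PRE10* without any 1 of 9, that of *RPT2* without any 1 of 7, and that of *RPN13* without any 1 of 4.

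**Figure D4:**
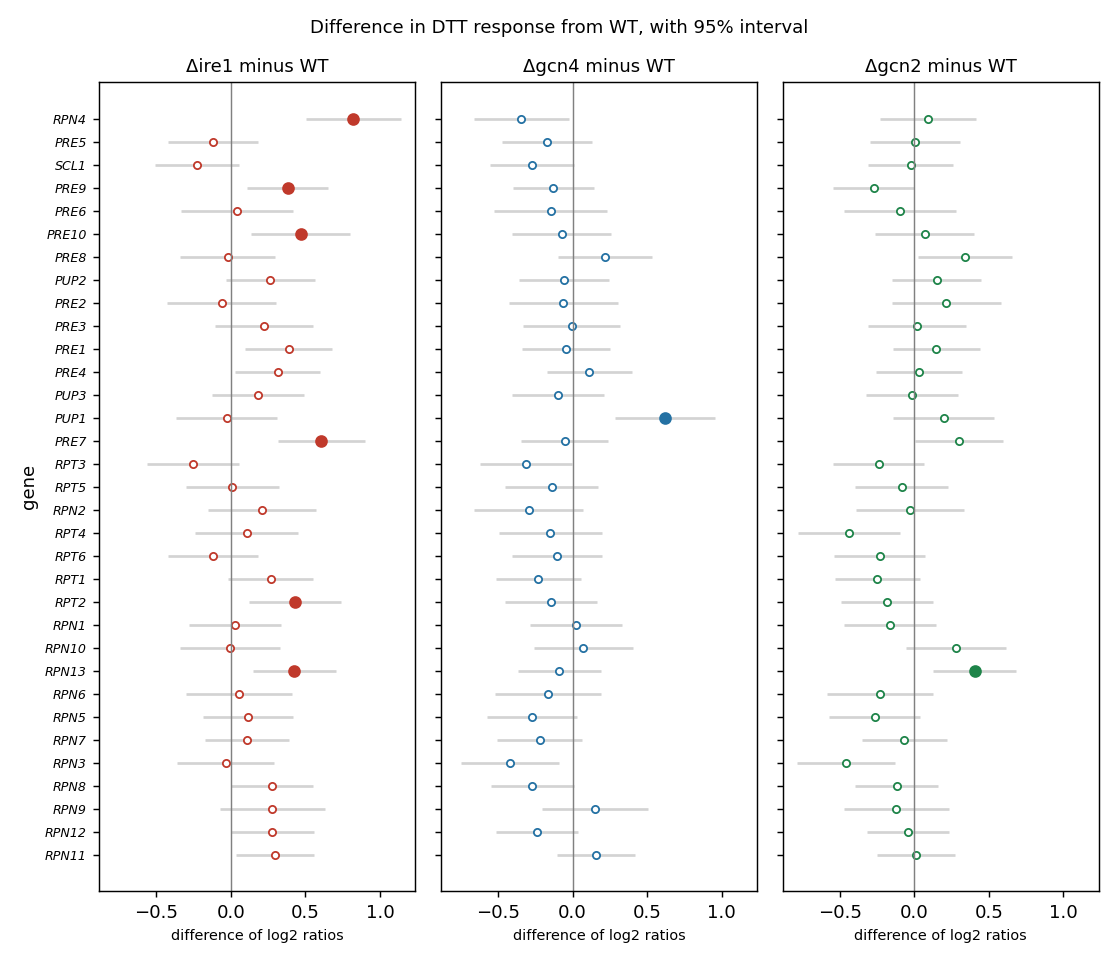
Difference in the log2 ratio (DTT-treated over untreated) between each deletion strain and WT for the 33 genes, with 95% intervals; filled points passed an adjusted p of 0.05. In Δire1 minus WT, 6 points are filled, led by RPN4 at 0.82, and 1 is filled in each of the other panels. The fit did not pair the arrays by replicate number.

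Between Δ*gcn4* and WT, 1 gene had a higher response, *PUP1* (0.62, SE 0.16, adjusted p = 0.046), and 0 had a lower one, where 0.863% and 1.94% of all elements did. At an unadjusted p under 0.05 in limma the counts were 1 and 3, against 474 and 479 of the 6024 elements. The differences of 26 of the 33 genes were below 0, with a median of −0.13 that became −0.11 after centering. Of the 6024 elements, 2962 had a difference below 0 as deposited. The call of *PUP1* did not hold after centering (0.64, adjusted p = 0.060) or without any 1 of 10 of the 12 arrays (adjusted p between 0.0504 and 0.19).

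Between Δ*gcn2* and WT, 1 gene had a higher response, *RPN13* (0.41, SE 0.13, adjusted p = 0.045), and 0 had a lower one, where 10.9% and 6.24% of all elements did. At an unadjusted p under 0.05 in limma the counts were 3 and 2, against 1225 and 738 of the 6024 elements. The arrays of these strains vary together by replicate number. In a fit of their 6 arrays with the replicate number as a block, 4 genes were higher and 6 lower, against 30.5% and 19.8% of all elements. The higher ones were *RPN13* (0.41, adjusted p = 4.2e-04), *PRE8* (0.34, adjusted p = 0.0033), *PRE7* (0.30, adjusted p = 0.0105), and *RPN10* (0.28, adjusted p = 0.018). The lower ones were *RPN3* (−0.46, adjusted p = 5.7e-05), *RPT4* (−0.44, adjusted p = 1.3e-04), *PRE9* (−0.27, adjusted p = 0.0218), *RPN5* (−0.27, adjusted p = 0.0247), *RPT1* (−0.25, adjusted p = 0.038), and *RPT3* (−0.24, adjusted p = 0.0458). Of the 33 genes, these higher and lower ones were smaller shares than those of all elements. *RPN1*, the other receptor gene of the base, had −0.16 (adjusted p = 0.19). Without the block, *RPN3* and *RPT4* had adjusted p of 0.0517 and 0.074, both passed after centering (0.025 and 0.040), and *RPN13* did not (0.082), nor did it without any 1 of 8 arrays. One gene was lower without WT array 2, Δ*ire1* array 3, or Δ*gcn4* array 1.

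The deletion strains were also compared with each other. In Δ*gcn4* minus Δ*gcn2*, 0 genes were higher and 1 lower, *RPN13* (−0.50, SE 0.13, adjusted p = 0.039), where 1.88% and 4.45% of all elements were. At an unadjusted p under 0.05 in limma the counts were 1 and 3, against 477 and 945 of the 6024 elements. The call of *RPN13* was lost after centering (−0.44, adjusted p = 0.069) and without any 1 of 5 arrays. In Δ*ire1* minus Δ*gcn4*, 11 genes were higher and 1 lower, where 13.2% and 12.8% of all elements were. The lower gene was *PUP1* (−0.65, SE 0.16, adjusted p = 0.0076), and the higher ones were led by *RPN4*, *PRE7* (0.66), *RPT2* (0.57), *RPN8* (0.55), *PRE10* (0.54), *RPN12* (0.52), and *RPN13* (0.52), followed by *PRE9* (0.51), *RPN2* (0.50), *RPT1* (0.50), and *PRE1* (0.43). The count of higher genes was 7 without Δ*ire1* array 1 and 7 without Δ*ire1* array 2, and 2 genes were lower without Δ*ire1* array 3. Leaving out 1 array ended the call of *RPN2* for 5 of the 12 arrays, of *PRE10* for 4, of *PRE1* for 4, and of *RPT1* for 2, and no other call in this comparison.

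In Δ*ire1* minus Δ*gcn2*, 8 genes were higher, where 15.8% of all elements were, and 0 were lower, where 21% were. At an unadjusted p under 0.05 in limma the counts were 13 and 1, against 1239 and 1564 of the 6024 elements. After *RPN4*, the differences were *PRE9* (0.65, adjusted p = 0.0013), *RPT2* (0.61, adjusted p = 0.0045), *RPT4* (0.54), *RPT1* (0.52), *RPN3* (0.42), *RPN8* (0.39), and *RPN5* (0.38). *PRE9*, *RPT1*, *RPT2*, *RPN8*, and *RPN4* were thus higher in Δ*ire1* than in Δ*gcn4* and than in Δ*gcn2*, 2 comparisons that share the Δ*ire1* arrays. Without Δ*gcn2* array 2 the count of higher genes was 4, and without Δ*gcn2* array 1 or Δ*ire1* array 1 or 2 it was 5, while 2 genes were lower without Δ*ire1* array 3. After centering, *PRE10*, *RPN9*, *RPN11*, and *RPN12* also passed, for 12 higher genes. Leaving out 1 array ended the call of *RPN5* for 8 of the 12 arrays, of *RPN3* for 5, of *RPN8* for 4, and of *RPT4* for 2.

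Over the 32 subunits as deposited, 23 had their highest mean in Δ*ire1* and 18 their lowest in Δ*gcn4*. The medians of all elements differed between strains, with −0.16 in Δ*gcn4* and −0.11 in Δ*gcn2*. These 2 counts can therefore depend on the scaling, and they were not taken again after centering. They were also not taken over all elements, so that no background share stands beside them. The SD over the subunit means was 0.18 in Δ*gcn2*, 0.21 in Δ*gcn4*, 0.24 in Δ*ire1*, and 0.26 in WT, compared with 0.65, 0.51, 0.44, and 0.57 over all elements. A typical subunit had an SD of 0.13 to 0.16 between the arrays of a strain. The order of the subunits was therefore resolved only in part, and the correlation of the subunit values between arrays of a strain was 0.36 to 0.65 in Δ*gcn4*, 0.55 to 0.70 in Δ*gcn2*, 0.49 to 0.84 in Δ*ire1*, and 0.49 to 0.85 in WT. Between arrays of different strains it ranged from −0.24 to 0.68. Over strain means it was 0.64 for WT and Δ*ire1*, 0.67 for WT and Δ*gcn4*, 0.58 for WT and Δ*gcn2*, 0.48 for Δ*gcn4* and Δ*gcn2*, 0.22 for Δ*ire1* and Δ*gcn4*, and 0.23 for Δ*ire1* and Δ*gcn2*. These correlations describe 32 genes that are not independent replicates.

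The other genes of the pathway were taken from 2 lists. Of the 13 measured genes for assembly factors and accessory proteins, WT had 6 higher and 3 lower, Δ*ire1* had 5 and 3, Δ*gcn2* had 7 and 2, and Δ*gcn4* had 6 and 3. The shares of higher genes were 46.2%, 38.5%, 53.8%, and 46.2%, above the 18.4%, 12.2%, 25.2%, and 15.8% of all elements in the same order. The shares of lower genes were 23.1%, 23.1%, 15.4%, and 23.1%, below the 39%, 35.6%, 37.8%, and 38.7% of all elements. After centering, WT had 7 and 1, Δ*ire1* had 7 and 2, Δ*gcn2* had 8 and 1, and Δ*gcn4* had 6 and 2. Of all elements, 27.6%, 21.9%, 31.7%, and 25.6% were higher after centering, and 28.4%, 23.2%, 30.8%, and 26.4% lower. Of the 15 genes of the ubiquitin system and the shuttle proteins, WT had 9 higher and 1 lower, Δ*ire1* had 8 and 3, Δ*gcn2* had 9 and 1, and Δ*gcn4* had 7 and 1, with 60.0%, 53.3%, 60.0%, and 46.7% higher. After centering, WT had 10 and 1, Δ*ire1* had 9 and 0, Δ*gcn2* had 10 and 0, and Δ*gcn4* had 9 and 1, and the counts of 0 became 1 at an unadjusted p under 0.05 in limma. The counts of this list are to be read against the same shares of all elements. *HUL5*, a ubiquitin ligase that acts at the proteasome, had the highest ratios, with 1.250, 2.629, and 2.743 in WT (2.21 ± 0.83). Its mean was 1.38 ± 0.25 in Δ*gcn4*, 1.87 ± 0.47 in Δ*gcn2*, and 0.70 ± 0.52 in Δ*ire1*, which was below WT by 1.51 on the log2 scale (SE 0.35, adjusted p = 0.0061). The values in Δ*ire1* were 1.283, 0.521, and 0.281, so that Δ*ire1* array 1 lay above WT array 1 and the strains overlapped. *NPL4*, a cofactor of the segregase Cdc48p, and *DDI1*, a shuttle protein, were higher in every strain, with 0.90 and 0.84 in WT and 0.67 and 0.44 in Δ*ire1*.

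*UBI4*, the polyubiquitin gene, also had its highest ratios in Δ*ire1*, with 1.328, 1.250, and 1.080 (1.22 ± 0.13). It had 0.95 ± 0.22 in Δ*gcn2*, 0.70 ± 0.12 in Δ*gcn4*, and 0.48 ± 0.14 in WT, and its response exceeded that of WT in Δ*ire1* (0.74, SE 0.14, adjusted p = 0.0022) and in Δ*gcn2* (0.47, SE 0.14, adjusted p = 0.035). *UMP1*, the chaperone of the maturing core, was chosen after its values had been seen. It had 0.748, 0.819, and 0.596 in Δ*ire1* and 0.454, −0.062, and 0.110 in WT, a difference of 0.55 (SE 0.16, adjusted p = 0.024).

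Of the chaperones that assemble the alpha ring, the pair of *ADD66* and *PBA1* had a lower response in Δ*ire1* than in WT. *ADD66* had 0.354, 0.332, and 0.554 in WT and −0.304, −0.407, and 0.032 in Δ*ire1*, a difference of −0.64 (SE 0.14, adjusted p = 0.0047). Its partner *PBA1* had 0.338, 0.549, and 0.133 in WT and −0.286, −0.389, and 0.079 in Δ*ire1*, a difference of −0.54 (SE 0.16, adjusted p = 0.027). In Δ*gcn4* and Δ*gcn2* the means were 0.77 and 0.66 for *ADD66* and 0.81 and 0.85 for *PBA1*. Against WT, *PBA1* was higher in Δ*gcn2* (0.51, SE 0.16, adjusted p = 0.045), but not after centering. The other pair, *IRC25* and *POC4*, was lower in every strain as deposited, with means of −0.56 and −0.47 in Δ*ire1* and −0.42 and −0.75 in WT. The responses in Δ*ire1* minus those in WT did not pass the test (−0.14, adjusted p = 0.53, and 0.28, adjusted p = 0.22). After centering, *POC4* was lower in every strain and *IRC25* in Δ*ire1* only. *ADC17*, a chaperone of the ATPase ring, was also higher in Δ*gcn2* than in WT (0.68, SE 0.19, adjusted p = 0.022), and *ECM29*, which tethers the 2 particles, and *DOA1*, which binds ubiquitin and Cdc48p, were lower (−0.67, adjusted p = 0.013, and −0.55, adjusted p = 0.029). Leaving out 1 array ended the call for *PBA1* with 4 arrays in Δ*ire1* and 7 in Δ*gcn2*, for *UMP1* with 4, for *UBI4* in Δ*gcn2* with 4, for *DOA1* with 5, for *ADC17* with 3, and for *ECM29* with 2.

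**Figure D5:**
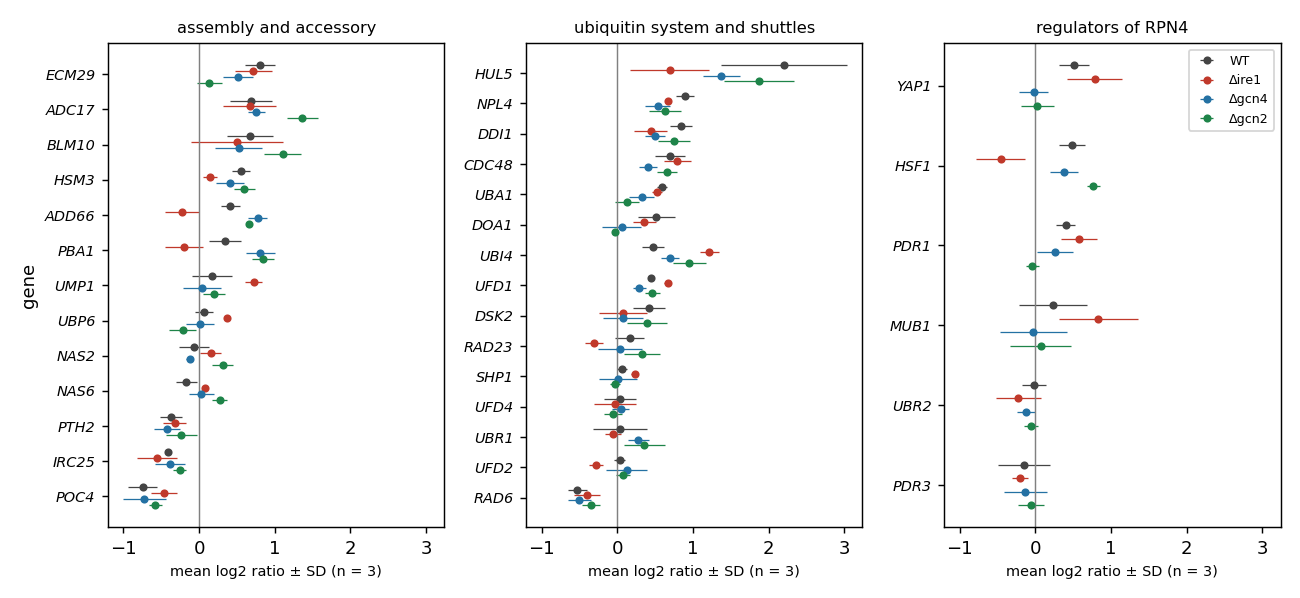
Mean log2 ratio (DTT-treated over untreated, points) ± SD over 3 arrays (bars) in each strain, for 13 assembly and accessory genes, 15 genes of the ubiquitin system and shuttles, and 6 genes that act on RPN4. ADD66 and PBA1 are below 0 in Δire1 and above 0 in the other strains, and UBI4 is highest in Δire1, at 1.22.

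Of the 6 genes that act on *RPN4* or its product, 4 encode transcription factors that bind its promoter. *HSF1*, the heat shock factor, had 0.460, 0.336, and 0.673 in WT and −0.697, −0.582, and −0.090 in Δ*ire1*, where it was lower (−0.46 ± 0.32, adjusted p = 0.0046), also after centering (−0.31). Its response in Δ*ire1* was below that of WT by 0.95 on the log2 scale (SE 0.17, adjusted p = 0.0011). It was higher in Δ*gcn4* (0.38 ± 0.18) and Δ*gcn2* (0.77 ± 0.082). The call in Δ*ire1* was lost without its array 1 (adjusted p = 0.068), and that in Δ*gcn4* without its array 3 (0.13). *YAP1*, of the oxidative stress factor, and *PDR1*, of the drug resistance factor, were higher in WT (0.51 ± 0.20 and 0.40 ± 0.12) and Δ*ire1* (0.78 ± 0.36 and 0.58 ± 0.24), with means of 0.03 and −0.04 in Δ*gcn2* and −0.02 and 0.26 in Δ*gcn4*. *PDR3* passed the test in no strain, with means from −0.20 to −0.06. *UBR2* and *MUB1* encode the ligase complex that marks Rpn4p for degradation. *UBR2* passed the test in no strain, with means from −0.22 to −0.02, and *MUB1* had 1.189, 1.080, and 0.229 in Δ*ire1* (0.83 ± 0.53, adjusted p = 0.0036) and 0.23 ± 0.45 in WT, a difference that did not pass the test (0.60, adjusted p = 0.15), and its call in Δ*ire1* was lost without array 1 of the strain (adjusted p = 0.051).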

How the data were processed

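The table deposited by the authors holds log2 ratios of DTT-treated over untreated cells for 6024 elements of spotted ORF arrays, with 3 decimals and no missing value. Poly(A) RNA was hybridized, and the normalization within arrays is not given in the sources used here. No signals of the separate channels were used, so depth and background were not examined, and 3 arrays per strain limit the precision. The study describes independent experiments. WT array 1 carries its number by elimination, since its label has none.

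Gene symbols came from the platform annotation and a gene table. *SEM1*, a lid subunit gene placed in the assembly list, was not matched, and *ADC17* was found under the synonym *TMA17*. No promoter or protein sequences were at hand, so a planned motif search was not run. The members and lists were chosen with earlier results of these data known.

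A linear model with a mean per strain was fitted to all 12 arrays with limma 3.58.1 in R 4.3.3 (moderated variance, 15.48 degrees of freedom), and p was adjusted by the method of Benjamini and Hochberg over all 6024 elements, with a threshold of 0.05. The script was tested on simulated data. Alternatives were centering, centering and scaling, array weights, a variance trend, each contrast on its own arrays, the replicate number as a block, and leaving out each array. *RPN4* was named throughout, as were the subunits with the highest and lowest mean in WT in each ring, base, and lid, the 2 subunits with the smallest p in each contrast with WT, and the pathway genes with the smallest p (3 in WT, 2 in each contrast with WT). Other members are named for their place in the particle or where they passed a test.

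Same-numbered arrays of Δ*gcn2* and WT deviated alike from the means of their strains (correlations over all elements of 0.574, 0.625, and 0.661), so the replicate numbers pair these strains. For no other pair of strains were all 3 correlations above 0.1.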

Additional observations from a re-analysis of the deposited data

Results flagged for a closer look

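Each result here was singled out because the response to DTT differed between strains in a test of the difference itself. Against WT, the response in Δ*ire1* was higher for *RPN4* (0.82), *PRE7* (0.61), *PRE10* (0.47), *RPT2* (0.43), *RPN13* (0.43), *PRE9* (0.38), *UBI4* (0.74), and *UMP1* (0.55), and lower for *HUL5* (−1.51), *HSF1* (−0.95), *ADD66* (−0.64), and *PBA1* (−0.54). Of the members, only *RPN4* and *PRE7* kept the call in Δ*ire1* minus WT when any 1 array was left out. The response in Δ*gcn4* was higher than in WT for *PUP1* (0.62), a call lost after centering and without any 1 of 10 of the 12 arrays. The response in Δ*gcn2* was higher than in WT for *ADC17* (0.68), *PBA1* (0.51), *UBI4* (0.47), and *RPN13* (0.41), and lower for *ECM29* (−0.67) and *DOA1* (−0.55). Leaving out 1 array ended each of these calls in Δ*gcn2*, for 2 of the 12 arrays with *ECM29* and up to 8 with *RPN13*. They come from the fit without the replicate block.

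Between deletion strains, *RPN13* was lower in Δ*gcn4* than in Δ*gcn2* (−0.50). In Δ*ire1* minus Δ*gcn4*, *RPN4* (1.16), *PRE7* (0.66), *RPT2* (0.57), *RPN8* (0.55), *PRE10* (0.54), *RPN12* (0.52), *RPN13* (0.52), *PRE9* (0.51), *RPN2* (0.50), *RPT1* (0.50), and *PRE1* (0.43) were higher, and *PUP1* (−0.65) was lower. In Δ*ire1* minus Δ*gcn2*, *RPN4* (0.73), *PRE9* (0.65), *RPT2* (0.61), *RPT4* (0.54), *RPT1* (0.52), *RPN3* (0.42), *RPN8* (0.39), and *RPN5* (0.38) were higher. The comparisons that include Δ*ire1* all rest on the same 3 arrays of that strain. Calls lost when 1 array was left out are listed with each comparison above.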

How the results depend on the processing

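Centering the arrays on their medians changed the counts against no change. In WT the lower genes went from 3 to 0, in Δ*ire1* from 1 to 0, and in Δ*gcn4* from 4 to 1, and the higher genes became 12 rather than 7 in Δ*gcn2* and 16 rather than 4 in Δ*gcn4*. The same counts were found after centering and scaling. The medians of the 32 subunits became 0.42 in Δ*ire1*, 0.30 in WT, 0.16 in Δ*gcn2*, and 0.24 in Δ*gcn4* after centering, and 0.48, 0.30, 0.14, and 0.25 after centering and scaling. Between strains, centering left 0 genes higher in Δ*gcn4* than in WT, 0 higher and 2 lower in Δ*gcn2* than in WT, and 0 lower in Δ*gcn4* than in Δ*gcn2*. After centering and scaling these were 0, 0 and 1, and 0, and 15 were higher in Δ*ire1* than in Δ*gcn2*. With centering alone, 56 of the 6024 elements were higher in Δ*gcn4* than in WT, and 175 lower in Δ*gcn4* than in Δ*gcn2*. In Δ*gcn2* minus WT, 531 elements were then higher and 461 lower. The shares of all elements after scaling are not given here.

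With array weights, 11 genes were higher and 2 lower in Δ*gcn2*, 2 were lower in Δ*gcn2* than in WT, 1 was higher and 2 lower in Δ*gcn4* than in Δ*gcn2*, 2 were lower in Δ*ire1* than in Δ*gcn4*, 1 was lower in Δ*ire1* than in Δ*gcn2*, and the difference of *RPN4* between Δ*gcn4* and Δ*gcn2* became −0.51. With each contrast fitted on its own arrays, 0 were lower in Δ*ire1*, 11 higher and 1 lower in Δ*gcn2*, 2 higher in Δ*ire1* than in WT, 0 higher in Δ*gcn4* than in WT, and 1 lower in Δ*gcn2* than in WT. With a trend in the variance, Δ*gcn2* minus WT had 1 lower gene. The shares of all elements called with array weights, own arrays, or the trend are not given here. These counts are therefore not set against a background, and the cause of the changes was not tested.

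With the replicate number as a block over all arrays, 2 genes were lower in Δ*gcn2* than in WT. The share of all elements with that block is not given here. Over the arrays of WT and Δ*gcn2* alone, where the pairing holds, 4 were higher and 6 lower, against 30.5% and 19.8% of all elements. The block over all arrays changed no call of the 126 single genes and contrasts examined. Of these, centering ended 12, scaling 13, array weights 2, own arrays 21, and the trend 4. Each array was also left out in turn. Among those fits, the fit with the lowest value of a result ended 47 of the 126, and the fit with the highest value ended 13. Calls lost only in the fits between them are not in these counts. No result changed direction in any of these settings.

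Leaving out 1 array at a time gave 6 to 16 genes higher and 1 to 3 lower in WT, and 12 to 19 higher and 0 to 2 lower in Δ*ire1*. It gave 1 to 4 higher and 2 to 4 lower in Δ*gcn4*, and 3 to 9 higher and 0 to 1 lower in Δ*gcn2*. Between strains it gave 2 to 7 higher in Δ*ire1* than in WT, 0 to 1 higher in Δ*gcn4* than in WT, 0 to 1 higher and 0 to 1 lower in Δ*gcn2* than in WT, 0 to 1 lower in Δ*gcn4* than in Δ*gcn2*, 7 to 12 higher and 1 to 2 lower in Δ*ire1* than in Δ*gcn4*, and 4 to 9 higher and 0 to 2 lower in Δ*ire1* than in Δ*gcn2*. The shares of all elements in these fits are not given here. *RPN4* in WT ranged from 0.28 to 0.35. Signal over background was not examined, since the values used are ratios.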
